A study of Mus musculus with 9 samples.

Results

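The comparison described here set 3 libraries of mouse cells labelled primary corneal endothelial cells (pCEC 1, 2 and 3) against 3 libraries of primary neural crest cells taken from E13.5 mouse embryos (pNCC 1, 2 and 3). They are 6 of the 9 RNA-seq libraries of the series, and no library of the induced cells entered the fit. Of 56481 gene symbols in the deposited count table, 29586 had a count in at least 1 of the 6 libraries and 16608 passed the filter on low counts and were tested. Both groups were kept in DMEM with 10% fetal bovine serum, 1% non-essential amino acids and 1% L-glutamine at 37 °C and 5% CO2. The labels name no treatment, transgene or deletion for either group, and they leave out the strain, the age of the animals the pCEC came from, how the cells were isolated and whether replicates came from separate animals. P-values therefore measure the spread between these libraries, which may be technical. PolyA RNA is the label of pNCC 1 to 3 and of pCEC 1, whereas pCEC 2 and pCEC 3 are labelled total RNA.

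The cornea is a clear tissue of 3 cellular layers: a stratified surface epithelium, a collagen-rich stroma kept by keratocytes, and a single inner sheet of endothelial cells that pumps fluid out of the stroma. The surface epithelium comes from head ectoderm, while much of the stroma and endothelium comes from the cranial neural crest, a migratory embryonic cell population that also forms peripheral glia and parts of the facial skeleton. The comparison sets cells labelled for a corneal layer against a culture labelled as neural crest.

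The libraries held between 27389292 counts in pCEC 3 and 36056020 in pCEC 2, so that 3 counts equalled 0.0823 to 0.120 counts per 1000000 (CPM, scaled by TMM factors of 0.916 to 1.07). The first principal component held 91.6% of the variance of log2 CPM and separated the groups. Distances between libraries of different groups were 2.64 to 2.91 on the log2 scale, those among pCEC libraries 0.672 to 0.863 and those among pNCC libraries 0.527 to 0.72. Of the 16608 genes tested, 62.5% were called different at an adjusted p under 0.05: 5032 were higher in pCEC (30.3%) and 5350 lower (32.2%). The groups did not overlap for 70.9% of the genes. All counts of list members are to be read against these shares. They leave out members too low to test. A member near 0 in 1 group passed the filter on low counts only through the other group, so that its direction was given by the filter, and counts and medians over such members are a description. Members that passed through pCEC alone made up 10 of the 17 tested genes of the corneal epithelium list, 5 of 9 claudins and 9 of 20 ion and water transport genes, and members that passed through pNCC alone 10 of 19 chemokines, 11 of 16 ADAMTS proteases, 7 of 15 cadherins, 5 of 15 smooth muscle genes and 5 of 19 imprinted genes. Many other lists held such members too, among them 5 of 11 vessel markers and 4 of 11 glial markers through pNCC alone. The median log2 fold change (pCEC minus pNCC) of all genes was -0.01.

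The label of the pCEC libraries was compared with markers of the corneal layers. Krt12, the keratin of the corneal surface epithelium, stood at 9016, 10900 and 12180 CPM in pCEC 1, 2 and 3 and at 0 in all pNCC libraries, which makes it at least 125700-fold higher (3 counts per library as the floor). The gene lies at chr11:99415666-99422259 on the minus strand (GRCm38). Aldh3a1, the aldehyde dehydrogenase stored as a crystallin in that epithelium, stood at 22080, 27460 and 27840 CPM against 1.17, 4.12 and 0. Pax6, the transcription factor of the eye surface and lens, stood at 979.6, 833 and 791 CPM against 0.176, 0.137 and 0. These were the levels of abundant transcripts in every pCEC library, and the groups were far apart for all 3 genes. The 2 markers of the inner face of the cornea were far lower in level. Slc4a11, a membrane transporter of the endothelium, stood at 75.4, 83.6 and 30.8 CPM against 1.99, 1.15 and 1.93 (log2 fold change 5.22 ± 0.46 (SE), adjusted p = 8.59e-05). Col8a2, a collagen of the endothelial basement membrane, stood at 77.5, 159.7 and 41 CPM against 17.3, 4.61 and 9.48, and pCEC 2 was the highest library. Its log2 fold change was 3.15 ± 0.64 (SE, adjusted p = 0.00448) and 2.52 without pCEC 2.

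Per kilobase of exon sequence, the mean level in pCEC was 5777 CPM per kilobase for Krt12 and 13280 for Aldh3a1, against 12.7 for Slc4a11 and 20.7 for Col8a2. All 17 tested genes of the corneal epithelium list were higher in pCEC (median log2 fold change 10.44, against -0.01 for all genes), whereas the 20 genes of the corneal endothelium list divided into 9 higher, 6 lower and 5 that did not pass (median 0.79). The leading genes of the pCEC libraries were thus those of the corneal surface epithelium rather than of the inner face, and pCEC is used below only as the libraries' name. In bulk libraries fewer cells of a type and less RNA per cell cannot be told apart.

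**Figure D1:**
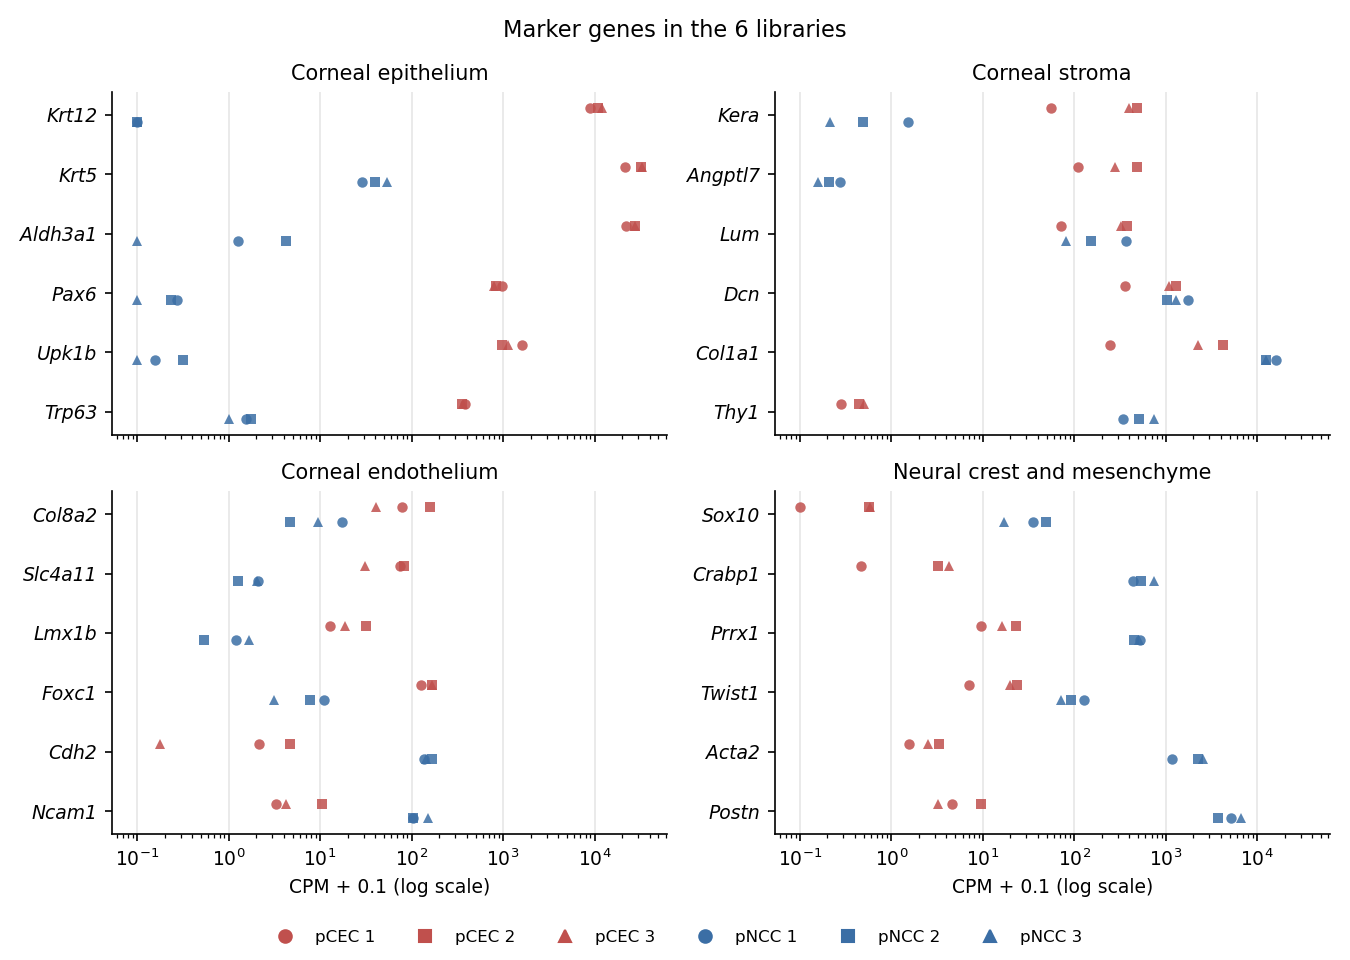
CPM plus 0.1 (log axis) of 24 marker genes in each of the 6 libraries, in 4 panels by cell type; red marks pCEC, blue marks pNCC, and the symbol gives the replicate. Krt12 and Aldh3a1 lie at 9016 CPM or more in all 3 pCEC libraries, and the stromal and endothelial genes vary between the pCEC libraries. The neural crest and mesenchyme genes drawn lie further right in pNCC, but Tfap2a and Tfap2b of the neural crest list, not drawn, were called higher in pCEC.

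Some 14.1% of the tested genes were at least 4-fold higher in pCEC and 14.6% at least 4-fold lower. The 10 most abundant of the higher genes were Krt5, Aldh3a1, Gsto1, Krt12, Tkt, Emp1, Aqp5, Calml3, Col17a1 and Asprv1, which together held 10.5 to 11.6% of all counts in the pCEC libraries and 0.114 to 0.21% in the pNCC libraries. Krt5, the type II keratin of basal epithelial cells, was the most abundant transcript of pCEC 2 and pCEC 3, at 21760, 31830 and 32870 CPM in pCEC 1 to 3 against 28.9, 39.9 and 53.9. Gsto1, a glutathione transferase, stood at 16040, 9510 and 12530 CPM against 198, 332 and 746, and Emp1, a membrane protein of epithelia, at 10140, 6482 and 9461 against 683, 797 and 1002. Asprv1, a protease of stratified epithelium that processes filaggrin in skin, stood at 5843, 3038 and 4763 CPM against 1.2, 0.247 and 1.14. Each of these 4 genes was above every pNCC library in every pCEC library by a wide margin.

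The 10 most abundant of the lower genes were Col1a1, Col1a2, Col3a1, Bgn, Fbln2, Postn, Fn1, Tnc, Thbs1 and Sparc, all of which encode matrix or matrix-bound proteins. They held 6.01 to 7.83% of the counts in pNCC and 0.115% in pCEC 1, 1.02% in pCEC 2 and 0.561% in pCEC 3. Fn1, the adhesion glycoprotein fibronectin, stood at 298, 837 and 582 CPM in pCEC 1 to 3 against 6354, 4794 and 4077, and Tnc, tenascin C, at 1.11, 2.23 and 9.1 against 3559, 4798 and 6708. Bgn, the proteoglycan biglycan, stood at 65, 453 and 357 CPM against 6178, 4995 and 5612. For all 3 the pCEC libraries lay below the pNCC libraries, and pCEC 1 was the lowest.

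Among genes above 10 CPM the largest increases, ranked by the fitted fold change, were those of Krt12, Calml3, Muc4, Krt13, Lypd2, Psca, Tmprss11a, Slurp1, Muc21 and Nccrp1. Calml3, an epithelial calmodulin-like protein, stood at 4845, 4839 and 5294 CPM in pCEC against 0 in all of pNCC (at least 58660-fold higher). Lypd2, Psca and Slurp1 encode small proteins of the Ly6 family. Lypd2 stood at 1550, 1463 and 1492 CPM, Slurp1 at 1430, 1026 and 1262 and Psca at 2193, 652 and 1168. Tmprss11a, a membrane-bound serine protease of surface epithelium, stood at 1364, 1231 and 1409 CPM. All 4 were at 0 in all pNCC libraries, and the pCEC libraries were close to each other except for Psca, which was highest in pCEC 1.

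The largest decreases were those of Grem1, Pappa, H19, Ccl11, Il1rl1, Ptgfr, Rspo3, Nrk, Tbx18 and Cnn1. Grem1, a secreted antagonist of bone morphogenetic proteins, was at 0 in all pCEC libraries and at 347, 661 and 1042 CPM in pNCC (at least 6905-fold lower in pCEC). Pappa, a protease that releases insulin-like growth factor, stood at 271, 225 and 152 CPM in pNCC, and Rspo3, a secreted enhancer of Wnt signalling, at 53.6, 38.5 and 12.6. Tbx18, a transcription factor of embryonic mesenchyme, stood at 25.6, 29.5 and 32.2 CPM in pNCC. All 4 were at 0 in all pCEC libraries and present in every pNCC library.

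**Figure D2:**
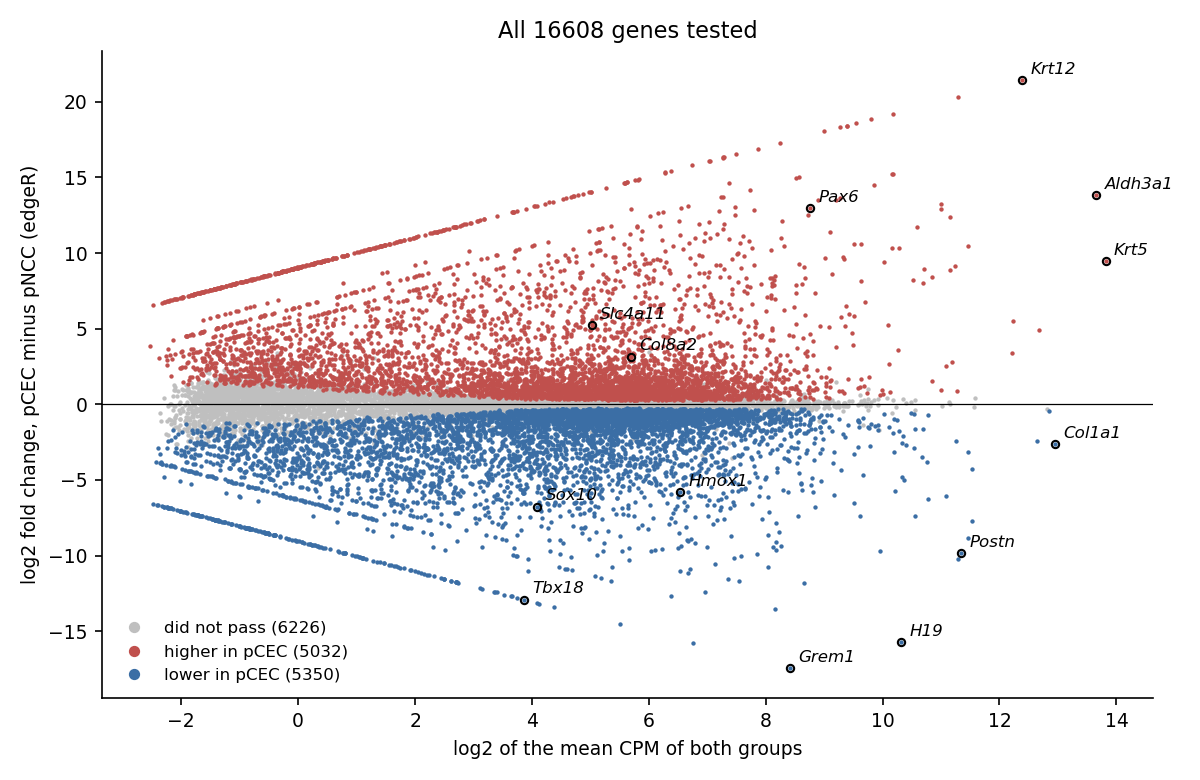
Log2 fold change (pCEC minus pNCC, edgeR) of the 16608 tested genes against the log2 of their mean CPM; red points were called higher in pCEC (5032), blue points lower (5350) and grey points did not pass. Krt12, Krt5 and Aldh3a1 lie at the upper right and Postn and H19 at the lower right, with Col8a2 and Slc4a11 closer to 0; the straight upper and lower edges are genes at 0 in a whole group, whose fitted value depends on the prior count.

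The promoters of the largest changes were read from the RefSeq table (GRCm38.p6, 250 bases before to 50 after each start) to see whether the abundant epithelial genes share a core element. The 50 largest increases and the 50 largest decreases matched 34 and 42 promoters, from 31 and 32 genes. The letters TATAAA, on either strand, stood in 17.6% of the first set, 16.7% of the second and 7.59% of the 14884 promoters of all tested genes that matched. CACCC stood in 70.6%, 76.2% and 63.6%, and TGANTCA in 17.6%, 9.52% and 5.64%. The shares of the 2 sets were similar for TATAAA and CACCC. Among keratins TATAAA was present in 35.3% of 17 promoters. The 2 most abundant keratins differed in these exact letters, and near forms such as the gataaaa of Krt5 were not searched. The 170 bases before their starts, on the strand of the gene, show TATAAA 29 bases before the Krt12 start (chr11:99422260-99422429, minus strand, capitals) and not in Krt5 (chr15:101712906-101713075, minus strand):
Krt12: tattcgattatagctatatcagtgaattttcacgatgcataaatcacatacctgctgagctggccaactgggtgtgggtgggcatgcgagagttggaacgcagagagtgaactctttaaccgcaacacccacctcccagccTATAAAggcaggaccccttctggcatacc
Krt5: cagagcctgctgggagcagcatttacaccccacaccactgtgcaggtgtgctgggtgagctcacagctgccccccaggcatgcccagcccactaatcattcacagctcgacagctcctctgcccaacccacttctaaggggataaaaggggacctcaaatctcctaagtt

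Keratins are the intermediate filament proteins of epithelia and pair a type I with a type II chain. Of 54 keratins 27 were tested, 14 of them passing the filter on low counts through pCEC alone. Of the 27, 23 were higher in pCEC and 4 did not pass, with none lower (median log2 fold change 7.62, or 7.13 with genes at 0 in a group set at their bound). Krt6b stood at 3518, 3456 and 5343 CPM against 0.381, 0.357 and 0.539 and Krt6a at 2536, 3036 and 4270 against 8.85, 12.3 and 17.5. These 2 near-identical chains of activated epithelium may share reads, so their division is uncertain. Krt15, a chain of basal and limbal cells, stood at 2105, 2989 and 1857 CPM against 0.117, 0 and 0.0568. Krt13, a chain of mucosal epithelium, stood at 1906, 1712 and 1762 CPM against 0 in all pNCC libraries, and its partner Krt4 at 192, 351 and 100.5 against 0. All 3 pCEC libraries exceeded all pNCC libraries for each of these 5 genes.

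Some keratins varied between the pCEC libraries. Krt14, the basal type I partner of Krt5, stood at 355, 988 and 2783 CPM against 40.6, 48 and 70.8, and Krt16, a chain induced by wounding, at 10.7, 113 and 1096 against 1.82, 1.18 and 4.4. Both were highest in pCEC 3 and lowest in pCEC 1. Their log2 fold changes were 4.69 and 7.37 with adjusted p = 0.00167 and 0.00907, and 3.70 and 4.71 without pCEC 3. Krt17 followed the same order, at 6.55, 23.7 and 56.8 CPM, but overlapped with pNCC at 20.7, 22.4 and 26.8 and did not pass (adjusted p = 0.699).

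All 20 transcription factors of the epithelial fate list were called higher (median log2 fold change 8.01), of which 12 passed the filter through pCEC alone and 8 through either group. Trp63, the factor that maintains stratified epithelium, stood at 382, 357 and 368 CPM against 1.47, 1.65 and 0.908 (log2 fold change 8.10 ± 0.26 (SE), adjusted p = 1.37e-06). Klf5, a Krüppel-like factor of the corneal surface, stood at 263, 283 and 294 CPM against 3.19, 4.67 and 5.22. Elf3, an ETS-domain factor of epithelia, stood at 689, 682 and 839 CPM against 0.0586, 0 and 0, and the related Ehf at 721, 532 and 601 against 0.234, 0.11 and 0.0568. Grhl2, a grainyhead factor that sustains junction genes, stood at 148, 138 and 134 CPM against 0.0879, 0.274 and 0.17. The 3 pCEC libraries were close to each other for these factors and did not overlap with pNCC.

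Mesenchymal transcription factors went the other way, with 21 of 22 lower in pCEC, and 1 that did not pass (median -6.31, or -5.53 with genes at 0 set at their bound); 14 of the 22 passed the filter through pNCC alone. Zeb1, a repressor of epithelial genes, stood at 2.65, 4.7 and 3.51 CPM in pCEC against 107, 116 and 94.7, and its relative Zeb2 at 0.751, 2.15 and 2.23 against 153, 164 and 155. Prrx1, a homeobox factor of limb and facial mesenchyme, stood at 9.41, 23 and 16 CPM against 518, 453 and 509.6 (log2 fold change -4.94 ± 0.35 (SE), adjusted p = 2.92e-05). Tbx15, a T-box factor of the dermis and skeleton, stood at 0.12, 0.058 and 0.0798 CPM against 197, 202 and 214. Snai2, a factor of crest emigration that basal epithelial cells also use, had the smallest difference of the called genes named here. It stood at 20.5, 28.9 and 28.9 CPM against 38.2, 46.8 and 64.7 (log2 fold change -0.94 ± 0.23 (SE), adjusted p = 0.00935). Osr2, at 9.23, 20.5 and 18.7 CPM against 32.9, 14.7 and 6.92, overlapped between the groups and did not pass (adjusted p = 0.807). Of 19 tested genes of the neural crest list 14 were lower, 2 higher and 3 did not pass (median -3.93). Tfap2a and Tfap2b were the higher members, and Msx2, Ngfr and Sox9 did not pass. Of the 19, 6 passed the filter through pNCC alone.

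Desmosomes, the spot junctions that anchor keratin filaments, had 12 of 13 genes higher and 1 lower (median log2 fold change 8.44). Dsp, which links the plaque to keratin, stood at 3388, 3788 and 3885 CPM against 7.27, 9.25 and 15.2, and Perp, a membrane protein of the plaque, at 3098, 3217 and 3679 against 5.62, 6.86 and 7.66 (log2 fold change 8.95 ± 0.24 (SE), adjusted p = 8.64e-07). The adhesive cadherin Dsg3 stood at 793, 657 and 981 CPM against 1.82, 1.87 and 3.92 and its partner Dsc2 at 1497, 1278 and 1581 against 0.557, 1.21 and 0.965. Dsg1a stood at 1131, 848 and 870.2 CPM in pCEC and Dsg1b at 90.4, 57 and 58.9, but they are close copies and reads may be divided between them. Pkp2, the plakophilin of simple epithelium and heart, was the lower member at 3.52, 5.71 and 3.59 CPM against 6.86, 13.2 and 21.1, and this call was lost without pCEC 3 (log2 fold change -1.68, or -1.54 without it).

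Hemidesmosomes tie basal epithelial cells to their basement membrane. Of 16 such genes 13 were higher and 3 did not pass (median 3.75), and without pCEC 2 another was called lower. Col17a1, the transmembrane collagen of the hemidesmosome, stood at 3656, 5643 and 5116 CPM against 4.57, 7.77 and 13.5, and the integrin chain Itgb4 at 481, 921 and 1016 against 10.5, 14.4 and 15.4. Its partner chain Itga6 stood at 531, 430.3 and 572 CPM against 26.4, 35.2 and 17.5 (log2 fold change 4.28 ± 0.29 (SE), adjusted p = 2.2e-05). Laminin chains divided by type. Of the epithelial chains Lama3 stood at 254, 188 and 227 CPM against 8.17, 10.1 and 11.2, Lama5 at 292, 357 and 306 against 6.15, 6.34 and 6.18 and Lamb3 at 64.3, 111 and 142 against 5.13, 6.7 and 8.46. Lama4, a chain of vessels and mesenchyme, stood at 0.18, 0.928 and 0.319 CPM against 522, 439 and 431, and Lamb1 and Lamc1 were lower as well. Over all 11 laminin chains 4 were higher, 6 lower and 1 did not pass (median -1.63).

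Integrins and the products that matched their name pattern gave 10 higher, 15 lower and 2 that did not pass among 27 tested (median -1.40). Itga5 and Itgb1 form the fibronectin receptor. Itga5 stood at 0.782, 4.29 and 5.5 CPM in pCEC against 277, 402 and 370.4, and Itgb1 at 217, 209.7 and 241 against 1256, 1554 and 1788. Itga3, which binds laminin, stood at 274, 382 and 451 CPM against 8.26, 9.06 and 6.36, and Itgb7 at 35.2, 60.2 and 60.4 against 1.14, 1.4 and 1.59. Of these 4 genes Itga3 and Itgb7 were higher and Itga5 and Itgb1 lower, with no overlap between groups. A division of the list by ligand was not tested.

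Among cadherins, the calcium-dependent adhesion molecules, 2 of 15 were higher, 9 lower and 4 did not pass (median -4.43). Cdh1, the cadherin of epithelia, stood at 423, 571 and 632 CPM against 3.52, 3.46 and 5.22, and Cdh11, a cadherin of mesenchyme, at 14.2, 25.1 and 25.4 against 961, 836 and 762. Cdh10 was at 0 in all pCEC libraries and at 9.87, 17.9 and 25 CPM in pNCC. Claudins, which seal tight junctions, had 7 higher, 1 lower and 1 that did not pass of 9 (median 7.38, or 6.97 with genes at 0 set at their bound). Cldn7 stood at 315, 391 and 470.3 CPM against 0.0879, 0.329 and 0.0851, Cldn17 at 16.8, 11.2 and 16 against 0 and Cldn8 at 4.51, 3.77 and 4.31 against 0. Cldn12 was the lower member, at 22.1, 22 and 25.7 CPM against 36.8, 50.8 and 43.7 (log2 fold change -0.91 ± 0.15 (SE), adjusted p = 0.00151).

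Connexins form gap junctions, and 7 of 11 were higher, 3 lower and 1 did not pass (median 5.06). Of the 11, 3 passed the filter through pCEC alone and 3 through pNCC alone. The beta connexins of stratified epithelium led, with Gjb2 at 92.7, 127 and 218 CPM against 0.0586, 0.0549 and 0.454 and Gjb6 at 4.87, 8.44 and 10.9 against 0 in all pNCC libraries. Gja1, a connexin of many tissues, was higher at 413, 398 and 552 CPM against 94.5, 116 and 164. Gjc1, a connexin of heart and vessel precursors, was lower at 0.0601, 0.145 and 0.638 CPM against 44.9, 46.3 and 41.3. Low Gjc1 and high beta connexins were seen in each of the 3 pCEC libraries.

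The surface of stratified epithelium is sealed by cross-linked envelope proteins and coated by mucins. Of 15 tested genes of the cornified envelope and barrier 13 were higher and 2 did not pass (median 5.62). Of the 15, 6 passed the filter through pCEC alone. The envelope scaffold protein envoplakin (Evpl) stood at 2195, 3544 and 3494 CPM against 1.32, 1.01 and 0.426, and periplakin (Ppl) at 2407, 2219 and 2259 against 2.46, 2.25 and 0.568. Tgm1, a transglutaminase that cross-links the envelope, stood at 46.1, 41.9 and 69.3 CPM against 4.07, 3.9 and 3.89, and the related Tgm5 at 36.9, 34.8 and 46.2 against 0. Krt1, the keratin of cornifying skin, was low at 11.7, 8.88 and 7.3 CPM. Sprr2d, a small proline-rich envelope protein, stood at 16.3 CPM in pCEC 3 and at 0 in the other 5 libraries, and did not pass the filter.

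Surface glycocalyx genes were 11 higher and 4 lower of 15 (median 3.34). Of the 15, 6 passed the filter through pCEC alone and 2 through pNCC alone. St6galnac1, which adds sialic acid to mucin sugars, stood at 392, 458 and 544 CPM and the membrane mucin Muc20 at 299, 219.7 and 276, both against 0 in all pNCC libraries. Galnt3, an enzyme that starts mucin glycans, stood at 181, 88.7 and 137 CPM against 1.23, 1.21 and 1.87. The lower members were C1galt1, Gcnt1, Gcnt4 and St3gal4, which extend or cap the glycan core, and C1galt1 stood at 15.4, 8.59 and 17.6 CPM against 70.1, 77.2 and 57.8. The goblet cell products Muc5ac and Tff1 were at 0 in all 6 libraries. Other genes of the conjunctiva and goblet cell list were not absent from pCEC. Of its 7 tested genes 5 were higher (Agr2, Krt4, Krt7, Krt13 and Krt19) and 2 did not pass (Krt8 and Krt18). The median log2 fold change was 5.50, or 4.31 with genes at 0 set at their bound, and 3 of the 7 passed the filter through pCEC alone.

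Water and ion transport genes were 16 higher and 4 that did not pass of 20, with none lower (median 4.33, or 3.64 with genes at 0 set at their bound). The water channel Aqp5 stood at 4946, 5684 and 6250 CPM against 4.72, 5.87 and 1.53 and Aqp3, which also carries glycerol, at 2166, 2514 and 2749 against 4.1, 1.43 and 0.17. Aqp1, the water channel of the endothelium and keratocytes, stood at 133, 381 and 330.4 CPM against 138, 116 and 43.5. Its groups overlapped at pCEC 1, and its call (adjusted p = 0.0395) was lost without pCEC 2, pCEC 3, pNCC 2 or pNCC 3 (log2 fold change 1.50, from 1.14 to 1.90 with 1 library left out). The sodium channel subunit Scnn1a stood at 74.3, 93.3 and 114 CPM against 1.93, 1.65 and 1.42 (log2 fold change 5.82 ± 0.23 (SE), adjusted p = 2.47e-06), and the osmotically gated channel Trpv4 at 43.8, 70.8 and 70.7 against 2.58, 3.16 and 2.27. Slc12a2, the sodium, potassium and chloride carrier, stood at 628, 259.5 and 345 CPM against 41.7, 46.2 and 48.6, with pCEC 1 the highest library.

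Corneal crystallins and antioxidant enzymes did not move one way: 9 were higher, 10 lower and 5 did not pass of 24 (median -0.08). The higher members included the transketolase Tkt at 7472, 10810 and 9986 CPM against 158, 194 and 271, the glutathione transferase Gsta4 at 4367, 4515 and 4756 against 11.1, 11.2 and 6.18 and the peroxiredoxin Prdx6 at 662, 837 and 832 against 123, 143 and 218. Nqo1, a quinone reductase, was higher at 57.8, 62.5 and 59.1 CPM against 11.4, 20.4 and 11.2. Hmox1, the inducible haem oxygenase, was lower at 1.32, 2.73 and 5.78 CPM against 186, 184 and 176, and Txnrd1, a thioredoxin reductase, at 84.9, 30.8 and 63.8 against 179.9, 238 and 239.6. Prdx1, at 282, 271 and 314 CPM against 290.5, 338 and 388, did not pass (adjusted p = 0.208).

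Of 15 tested mucosal defence proteins 9 were higher, 3 lower and 3 did not pass (median 5.17, or 4.82 with genes at 0 set at their bound), and 7 passed the filter through pCEC alone. The lower members were Slpi, Reg3g and Cxcl14. Slpi, a secreted protease inhibitor, stood at 1.35, 4.12 and 3.39 CPM against 5.13, 7.79 and 7.49, and its call was lost without pCEC 3, pNCC 2 or pNCC 3 (log2 fold change -1.20, from -1.49 to -0.79 with 1 library left out). Cxcl14, a chemokine of epithelia, stood at 2.71, 4 and 7.14 CPM against 12.8, 15.4 and 24.1, and Reg3g, an antibacterial lectin, at 0 against 4.63, 1.32 and 0.341. Of 12 S100 proteins 9 were higher and 3 lower (median 1.95). S100a14, of epithelial cells, stood at 524, 381 and 539.7 CPM against 1.52, 1.54 and 2.72, and S100a6, which is common to many cells, at 1522, 1234 and 1280 against 308, 402 and 457. Of 13 clade B serpins, many of which inhibit proteases inside cells and at surfaces, 8 were higher, 4 lower and 1 did not pass (median 3.33). Of the 13, 5 passed the filter through pCEC alone and 1 through pNCC alone. Serpinb5, maspin of stratified epithelium, stood at 461, 483 and 670.3 CPM against 1.17, 2.14 and 1.59, while Serpinb6a was lower at 29.4, 41.6 and 48.1 against 183, 211 and 299.6. Of 27 kallikreins 3 were tested and called higher, with Klk10, a protease of epithelial surfaces, at 21, 21.4 and 39.5 CPM against 0.586, 0.384 and 0.341. The antimicrobial peptide Defb1 stood at 115, 67.9 and 68 CPM against 0, 0 and 0.114.

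Enzymes of arachidonate metabolism, which make lipid mediators, were 6 higher, 4 lower and 5 that did not pass of 15 (median -0.14). The lower members included both cyclooxygenases. Ptgs1 stood at 28.4, 30.3 and 48.3 CPM against 84.9, 115 and 105 and Ptgs2, the inducible one, at 0.842, 9.74 and 6.9 against 38.7, 129.6 and 138. Among the higher members the lipoxygenase Alox12 stood at 57.7, 57.6 and 66.3 CPM against 0.146, 0.329 and 0.624 and the epoxide hydrolase Ephx2 at 78.4, 92.3 and 81.7 against 3.63, 2.47 and 3.23 (log2 fold change 4.76 ± 0.18 (SE), adjusted p = 2.23e-06). Alox12 and the 2 cyclooxygenase genes thus differed in opposite directions in all 3 pCEC libraries.

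Potassium channels gave 16 higher, 17 lower and 7 that did not pass of 40 (median -0.70). Of the 40, 14 passed the filter through pCEC alone and 15 through pNCC alone, so these counts are a description. Kcnk5, a leak channel of epithelia, stood at 21.2, 46 and 48.5 CPM against 2.23, 4.42 and 2.41, and Kcnv1, a modifying subunit, at 19.7, 13.3 and 13.6 against 0. Kcne4, an accessory subunit, was lower at 0, 0.116 and 0 CPM against 47.9, 32.9 and 53.6. Markers of limbal and basal progenitors were 5 higher, 2 lower and 3 that did not pass of 10 (median 0.66). Gpha2, a hormone subunit of limbal cells, stood at 17.1, 27.3 and 19.1 CPM against 0.0586, 0 and 0, whereas Abcg2, a transporter of side population cells, stood at 28.8, 34.5 and 39.1 against 35.9, 34 and 41.7 and did not pass (adjusted p = 0.497). Ifitm3, an antiviral membrane protein, was lower at 13.1, 50.8 and 78.9 CPM against 407, 379 and 473, with pCEC 1 the lowest library.

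**Figure D3:**
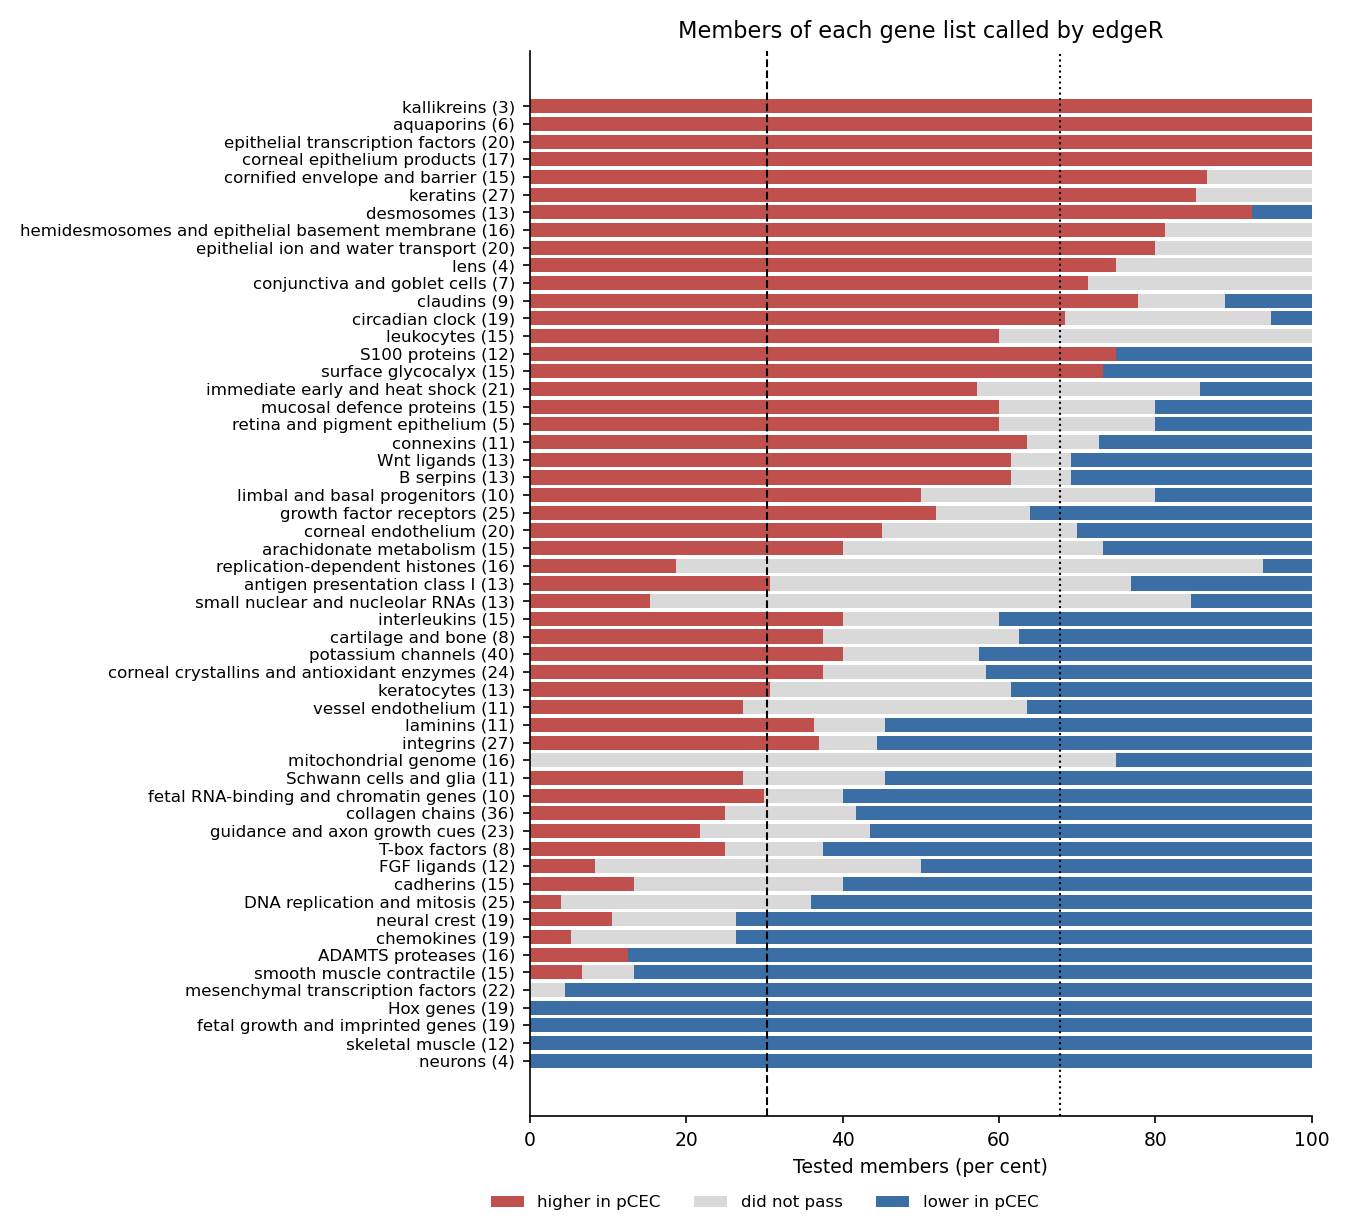
Share of the tested members of 55 gene lists that edgeR called higher in pCEC (red), called lower (blue) or did not call (grey), with the number of tested members in brackets; the dashed line marks the share of all genes called higher (30.3%) and the dotted line the share called lower, drawn from the right (32.2%). Epithelial transcription factors, desmosomes and keratins lie at the top, and Hox genes, imprinted genes and mesenchymal transcription factors at the bottom. All tested Hox genes and 14 of 22 mesenchymal factors passed the filter on low counts through pNCC alone. Through pCEC alone passed 12 of 20 epithelial factors and 14 of 27 keratins. The filter gave the direction of these members, so the order of the lists is a description.

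Receptors of growth factors divided, with 13 of 25 higher, 9 lower and 3 that did not pass (median 1.18). The lower members included receptors of platelet-derived and fibroblast growth factors: Pdgfrb stood at 5.92, 27 and 25.6 CPM against 667, 766 and 837 and Fgfr1 at 11.6, 34.9 and 28.2 against 530.3, 603 and 541 (log2 fold change -4.49 ± 0.42 (SE), adjusted p = 0.000111). Among the higher members Fgfr2, whose epithelial form reads Fgf7, stood at 168, 175 and 162 CPM against 17.6, 18.7 and 28.4, and Fgfr3 at 112, 126 and 178 against 0.44, 1.15 and 1.39. Kit, the receptor of stem cell factor, stood at 272, 262 and 207 CPM against 0.41, 0.714 and 0.681, and Met, the receptor of hepatocyte growth factor, at 178, 119 and 143 against 31, 34.9 and 23.4. The collagen receptors differed in opposite directions, with Ddr1 at 400.0, 597 and 576 CPM against 90.7, 83.7 and 78.8 and Ddr2 at 12.9, 19 and 12.6 against 338, 309.5 and 314. The groups did not overlap for any of these 8 receptors.

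Ligands followed a similar division. Of 13 Wnt ligands 8 were higher, 4 lower and 1 did not pass (median 3.66). Of the 13, 4 passed the filter through pCEC alone and 2 through pNCC alone. Wnt4 stood at 345, 456 and 439 CPM against 43.2, 43 and 12.2, Wnt7b at 168, 206 and 223 against 0.527, 1.37 and 1.3 and Wnt3a at 33.1, 37.1 and 40 against 0, 0.165 and 0.114. Wnt5a, a ligand of the non-canonical branch, was lower at 46.4, 76.1 and 61 CPM against 139, 186 and 188 (log2 fold change -1.48 ± 0.21 (SE), adjusted p = 0.000727). Of 12 fibroblast growth factors 6 were lower, 1 higher and 5 did not pass (median -1.71). Of the 12, 6 passed the filter through pNCC alone and 1 through pCEC alone. Fgf7, which mesenchyme sends to epithelium, stood at 0.12, 0.29 and 0.878 CPM against 166, 163 and 275, and Fgf5 was at 0 in pCEC against 20.2, 28 and 13.3. The single higher call, Fgf1, at 7.33, 7.77 and 0.239 CPM against 0.176, 0.494 and 0.908, overlapped between groups in pCEC 3 and was lost without pCEC 1, pCEC 2, pNCC 1 or pNCC 2 (log2 fold change 3.28, from 2.84 to 3.90 with 1 library left out).

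Chemokines, which draw leukocytes, were lower for 14 of 19, with 1 higher (2 without pNCC 3) and 4 that did not pass (median -3.86). Cxcl12 stood at 0.842, 0.754 and 0.798 CPM against 761, 515 and 393 (log2 fold change -9.44 ± 0.35 (SE), adjusted p = 1.92e-06), Cxcl5 at 0.0601, 0.232 and 1.99 against 644, 495 and 587 and Ccl2 at 0, 0.522 and 0.598 against 266, 336 and 545. Cx3cl1, a membrane-bound chemokine, was the higher member, at 62.7, 85.7 and 55.9 CPM against 2.87, 3.57 and 2.33 (log2 fold change 4.54 ± 0.24 (SE), adjusted p = 8.11e-06). Interleukins were 6 higher, 6 lower and 3 that did not pass of 15 (median -0.45), and 3 lower without pCEC 1, pCEC 3 or pNCC 2. Of the 15, 5 passed the filter through pCEC alone and 4 through pNCC alone. Il18, a cytokine stored in epithelia, stood at 72, 49.6 and 69.8 CPM against 2.23, 1.43 and 1.19, and Il1a, another, at 34.1, 25.4 and 52.3 against 0.205, 1.04 and 1.84. Il6, a cytokine of fibroblasts and many other cells, was lower at 0, 0.116 and 0.16 CPM against 8.58, 7.57 and 23.6.

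Guidance cues, which steer migrating cells and axons, had 5 higher, 13 lower and 5 that did not pass of 23 (median -2.06). Slit3 stood at 6.16, 20.4 and 18.1 CPM against 632, 642 and 1037 and the semaphorin receptor Nrp2 at 3.85, 7.74 and 8.89 against 422, 314 and 343. Sema3f, a semaphorin read by that receptor, was higher at 264, 325 and 339 CPM against 54.4, 29.9 and 16.5, and Sema4a at 194, 250.3 and 253 against 0.381, 0.604 and 0.681. Smooth muscle genes were lower for 13 of 15, with 1 higher (none without pNCC 1) and 1 that did not pass (median -5.77). Cald1, which binds actin, stood at 11.3, 23.2 and 12.4 CPM against 1092, 1370 and 1859, and Tpm1, a tropomyosin, at 13.9, 19.2 and 15.5 against 665, 1012 and 968. Tpm2, a second tropomyosin, stood at 177, 234 and 278 CPM against 170.1, 262 and 287 and did not pass (adjusted p = 0.839).

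Matrix proteases of the ADAMTS family were lower for 14 of 16 and higher for 2 (1 without pCEC 2, pCEC 3 or pNCC 2; median -6.07). Adamts2, which trims procollagen, stood at 4.03, 29.8 and 22.6 CPM against 457, 389 and 446, and Adamts5, which cuts aggrecan and versican, at 0.18, 1.04 and 0.878 against 259, 169.8 and 164. Adamts18 was higher, at 18.9, 19.6 and 9.69 CPM against 0.0586, 0.0549 and 0. Of 36 collagen chains 21 were lower, 9 higher and 6 did not pass (median -2.39). Col3a1 stood at 1.8, 59.4 and 22.7 CPM against 10590, 5047 and 2103. Col7a1, the anchoring fibril of epithelial basement membrane, was higher at 186, 253 and 234 CPM against 87.5, 154 and 121 (log2 fold change 0.89 ± 0.23 (SE), adjusted p = 0.0105).

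The abundant fibril chains were far from 0 in 2 of the pCEC libraries. Col1a1 stood at 248, 4196 and 2230 CPM in pCEC 1, 2 and 3 against 15930, 12410 and 12460, and Col1a2 at 283, 3715 and 2050 against 13510, 9245 and 9382. Both were lower in every pCEC library than in every pNCC library, and pCEC 1 was far below the other pCEC libraries. The calls of both genes were lost without pCEC 3, pNCC 1 or pNCC 2 (log2 fold changes -2.61 and -2.41, adjusted p = 0.0331 and 0.0342). With 1 library left out the log2 fold change ran from -3.40 to -2.02 for Col1a1 and from -3.15 to -1.83 for Col1a2.

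Imprinted genes that act on fetal growth were lower in pCEC for all 19 tested (median -3.93). H19, a non-coding RNA of fetal tissue, stood at 0, 0.116 and 0 CPM against 4373, 2817 and 478, and pNCC 3 was the lowest pNCC library. Grb10, an adaptor that restrains insulin signalling, stood at 1.62, 5.66 and 4.07 CPM against 627, 492 and 460.3, and Igf2r, which clears insulin-like growth factor 2, at 46.4, 50.4 and 54.2 against 617, 602 and 599 (log2 fold change -3.59 ± 0.13 (SE), adjusted p = 1.76e-06). Peg3, a zinc finger factor, stood at 10.1, 28.6 and 19.9 CPM against 267, 223 and 404. Not every member was as far apart. Mest, an enzyme-like protein of fetal mesoderm, stood at 7.3, 17.3 and 9.02 CPM against 56.4, 23.5 and 16, and its call was lost without pCEC 1, pCEC 3, pNCC 1 or pNCC 2 (log2 fold change -1.51, from -1.94 to -0.83 with 1 library left out). The calls of Nnat (lost without any library but pCEC 1, from -1.36 to -0.82 with 1 library left out), Meg3 (lost without pCEC 3 or pNCC 1, from -4.00 to -2.32 with 1 library left out) and Zim1 (lost without pCEC 3, from -3.24 to -1.78 with 1 library left out) also rested on single libraries.

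Fetal RNA-binding and chromatin genes were 6 lower, 3 higher and 1 that did not pass of 10 (median -2.93). Igf2bp2, which binds fetal mRNAs, stood at 0.541, 1.39 and 1.52 CPM against 175, 179.6 and 155, and the chromatin protein Hmga2 at 0.18, 0.174 and 0.239 against 101, 178 and 169. Both were near 0 in each pCEC library. Replication and mitosis genes were 16 lower, 1 higher and 8 that did not pass of 25 (median -0.64). Mki67, a marker of dividing cells, stood at 110.2, 124 and 109 CPM against 172, 214 and 208 (log2 fold change -0.79 ± 0.13 (SE), adjusted p = 0.00149). The cyclins changed unequally, with Ccnd1 higher at 351, 383 and 358 CPM against 91.8, 116 and 85 and Ccnd2 lower at 108, 118 and 94.3 against 398, 354 and 464.

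Hox genes encode positional factors of the trunk and hindbrain, and cells of the anterior head do not use them. Of 39 listed genes 36 were at 0 in all pCEC libraries. The 19 that could be tested all passed the filter on low counts through pNCC alone, which fixed their direction, so no count of calls is drawn from them. The summed level of the list was 0.301, 0.406 and 0.638 CPM in pCEC 1 to 3 and 93.6, 83.4 and 382 CPM in pNCC 1 to 3. The neural crest libraries did not share one Hox profile. Hoxa2, the factor of the second arch and hindbrain, stood at 17.1, 9.93 and 0.681 CPM in pNCC 1 to 3 and was lowest in pNCC 3. Most posterior genes were highest in pNCC 3, with Hoxb9 at 1.38, 2.06 and 71.2 CPM, Hoxc8 at 0.527, 0.659 and 38.3 and Hoxc6 at 3.16, 4.45 and 45.7. Hoxd8 was an exception, at 43.2, 35 and 25.1 CPM. Hoxc10, Hoxa10, Hoxa9 and Hoxc9 stood at 33.6, 31.5, 13.5 and 29.9 CPM in pNCC 3, against at most 0.247 CPM in pNCC 1 and pNCC 2, and did not pass the filter. Hoxb9 and Hoxc8 were at 0 in all pCEC libraries, and their calls (adjusted p = 0.0302 and 0.0422) were lost without any single pCEC library (largest adjusted p = 0.0616 and 0.0813).

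**Figure D4:**
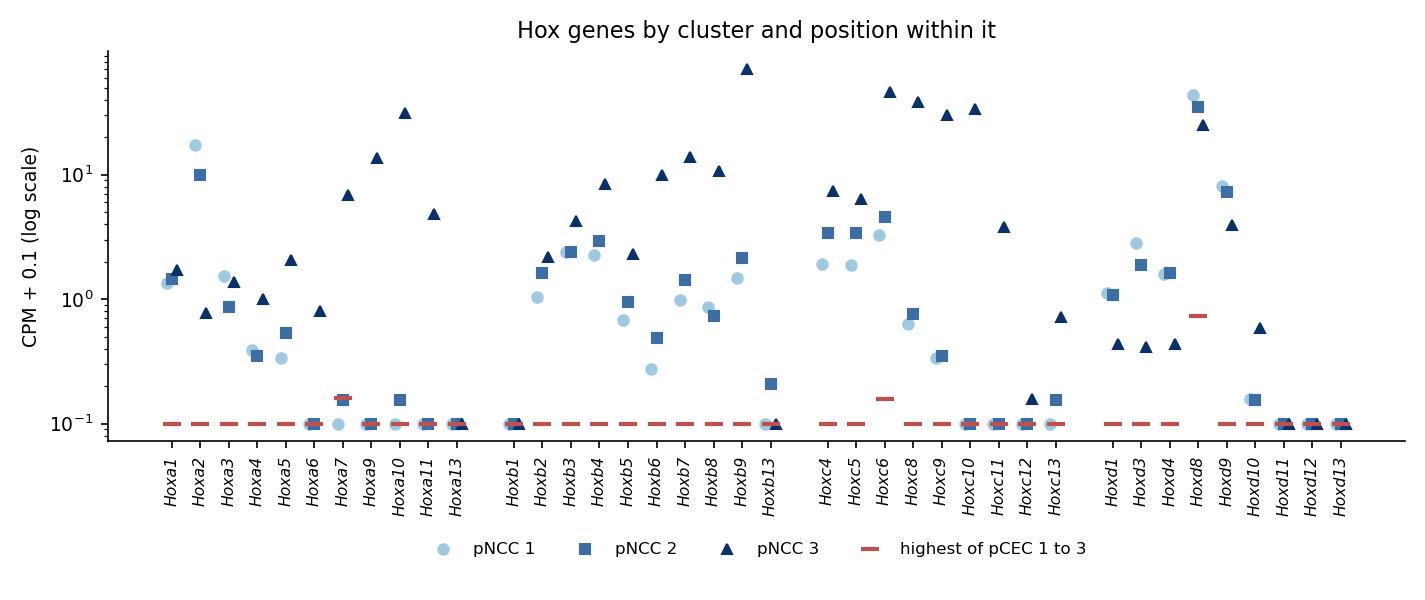
CPM plus 0.1 (log axis) of Hox genes, ordered by cluster and by position within it, in the 3 pNCC libraries (blue symbols), with the highest of the 3 pCEC libraries as a red bar. Hoxa9, Hoxa10, Hoxc9 and Hoxc10 stand between 13.5 and 33.6 CPM in pNCC 3 and near the floor in pNCC 1 and pNCC 2, while Hoxa2 and Hoxd8 are lowest in pNCC 3.

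Other genes set pNCC 3 apart from pNCC 1 and 2. With a level of at least 10 CPM in the higher library, 12 genes were at least 5-fold higher in pNCC 3 than in the nearer of the other 2, and 10 were at least 5-fold lower. Neither pNCC 1 nor pNCC 2 had such a gene. This ranking was chosen after the values were seen and carries no test. Dmrt2, a factor of the somite, stood at 5.51, 5.1 and 44.7 CPM in pNCC 1 to 3, and Cck, a peptide hormone, at 8.88, 27.6 and 182. Igf2 stood at 47.5, 28.7 and 2.27 CPM, Igfbp4 at 598, 224 and 29.8 and the elastin gene Eln at 183, 65 and 11, each lowest in pNCC 3. Transcripts of skeletal muscle were lower there as well: Actc1 stood at 11.8, 12.3 and 1.62 CPM and the embryonic myosin Myh3 at 21.3, 17.6 and 4.82. The 17 listed muscle genes summed to 3.16, 2.7 and 3.23 CPM in pCEC 1 to 3 and 132, 140 and 92.5 CPM in pNCC, and 10 of the 12 tested passed the filter through pNCC alone.

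The 3 pCEC libraries differed from each other in more genes. By the same ranking pCEC 1 had 7 genes at least 5-fold above and 52 at least 5-fold below both other pCEC libraries, pCEC 2 had 4 and 8, and pCEC 3 had 14 and 7. These are single libraries, so no test was made, and the RNA label (polyA for pCEC 1, total RNA for pCEC 2 and 3) cannot be told apart from the library for pCEC 1.

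Stromal genes were lowest in pCEC 1. Kera, the keratan sulphate proteoglycan keratocan, stood at 55.3, 487 and 395 CPM in pCEC 1, 2 and 3 against 1.41, 0.384 and 0.114 in pNCC, and Angptl7, a secreted factor of keratocytes, at 108, 479.5 and 277 against 0.176, 0.11 and 0.0568. Lum, lumican, stood at 71.8, 374 and 322 CPM against 365, 152 and 80.1, with overlapping groups (adjusted p = 0.678). Dcn, decorin, stood at 358, 1299 and 1081 CPM against 1762, 1041 and 1308 and did not pass either (adjusted p = 0.303). The summed level of the 14 keratocyte genes was 1224, 7921 and 4985 CPM in pCEC 1 to 3 and 17280 to 22270 CPM in pNCC. Of 13 tested 4 were higher, 5 lower and 4 did not pass (median -0.59), with 3 lower without pCEC 3 and 2 without pNCC 1 or pNCC 2. Kera and Angptl7, which were near 0 in pNCC, did not overlap between groups, whereas Lum and Dcn, present in both, did.

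A group of genes that includes products of the inner face of the cornea was low in pCEC 3. The first 4 named were picked from the ranking of single libraries after their values were seen, and Cldn10 was listed as a conjunctiva marker. Car3, a carbonic anhydrase, stood at 69.6, 91.9 and 0 CPM in pCEC 1, 2 and 3, and Cldn10, a claudin of ion-transporting epithelia, at 11.1, 13.2 and 0. Col4a3, a basement membrane collagen chain, stood at 26.4, 34.6 and 0.16 CPM and its partner Col4a4 at 21.3, 23.8 and 0.558. Each of these 4 genes was above 10 CPM in pCEC 1 and pCEC 2 and below 1 CPM in pCEC 3. In pNCC the highest value of the 4 was 0.494 CPM. Atp1b1, a subunit of the sodium pump, followed with 14.8, 21.1 and 1.04 CPM against 6.71, 7.3 and 6.78, Col8a1 with 12.9, 29.6 and 2.79 against 169, 118 and 55.2, and Slc4a11 and Col8a2 were also lowest in pCEC 3. Atp1b1 did not pass with all libraries (adjusted p = 0.415) and passed without pCEC 3 (adjusted p = 0.00325).

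The endothelial list as a whole did not follow this order. Its summed level was 1847, 2368 and 2211 CPM in pCEC 1 to 3, against 1457 to 1505 CPM in pNCC. Foxc1, a factor of the eye's periocular mesenchyme, stood at 125, 168 and 167 CPM against 10.8, 7.57 and 3.06 (log2 fold change 4.42 ± 0.46 (SE), adjusted p = 0.000177). The level of Car3, Col4a3 and Cldn10 varied between pCEC libraries by far more than that of Krt12, Aldh3a1 and Pax6, given above. Car3, Col4a3 and Cldn10 were picked from the ranking for that variation, so this contrast was fixed by the choice.

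A group of stress and inflammation genes was highest in pCEC 3. Saa3, an acute phase protein, stood at 0, 0.058 and 64.7 CPM in pCEC 1 to 3, against 300.1, 134 and 222 in pNCC. S100a8 and S100a9 are the alarmin pair of stressed epithelium and neutrophils. S100a8 stood at 0.0601, 0 and 35.3 CPM and S100a9 at 1.92, 0.986 and 208. The matrix protease Mmp13 stood at 0.601, 0.812 and 22.9 CPM, Mmp3 at 0.541, 8.06 and 73.5 and Sprr1a, an envelope protein induced by injury, at 8.15, 12.3 and 64.5. All 6 were picked from the genes at least 5-fold higher in pCEC 3 than in both other pCEC libraries. Krt16 met that rule too. That these genes were highest in pCEC 3 was fixed by this choice. The call of S100a9 (adjusted p = 0.0165) was lost without any single pNCC library (largest adjusted p = 0.0988), and Saa3, Mmp13 and Mmp3 did not pass (adjusted p = 0.174, 0.322 and 0.0618). Without pCEC 3 these 3 genes were called lower (adjusted p = 0.000116, 0.000125 and 0.00811). Fabp5, a fatty acid binding protein of keratinocytes, followed at 102, 147 and 502 CPM against 146, 178 and 129.5 and did not pass (adjusted p = 0.3).

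Markers of leukocytes were set beside these values. Their summed level over 17 listed genes was 97.4, 123 and 131 CPM in pCEC 1 to 3 and 25.5 to 31.9 CPM in pNCC. Of 15 tested 9 were higher with none lower (median 2.71), and 8 of the 15 passed the filter through pCEC alone. Most of the sum in pCEC 1 came from Itgam, an integrin of myeloid cells, at 64.7, 25.4 and 52.2 CPM against 0, 0.137 and 0. Ptprc, the surface antigen of all leukocytes, stood at 0.24, 1.28 and 1.2 CPM against 0.469, 0.0549 and 0.284 and did not pass (adjusted p = 0.115, or 0.0365 without pCEC 1). Cd74, of antigen-presenting cells, stood at 4.03, 25.6 and 14.3 CPM against 0.498, 0.0823 and 0.369, and the complement gene C1qc at 0.722, 5.02 and 2.91 against 0.234, 0.274 and 0. Cd74 and C1qc were highest in pCEC 2, whereas Itgam was highest in pCEC 1, so the markers did not move as 1 group. The part of leukocytes in the stress genes was not tested.

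Immediate early genes, which cells switch on within minutes of a stimulus, differed widely among the pCEC libraries. Fos stood at 43.2, 2905 and 1110 CPM in pCEC 1, 2 and 3 against 22.9, 20.6 and 22.5, and Fosb at 2.71, 1311 and 364 against 2.34, 1.87 and 3.01. Egr1 stood at 11.1, 1960 and 624 CPM against 286, 268 and 381, Atf3 at 0.962, 343 and 12.7 against 12.9, 18.6 and 8.51 and Socs3, a feedback inhibitor of cytokine signalling, at 0.902, 482 and 50.9 against 65.9, 66.5 and 76.3. All 5 were highest in pCEC 2, and pCEC 1 was the lowest for all 5. The summed level of the 21 listed genes, which leave out Socs3, was 1714, 13760 and 5918 CPM in pCEC and 1134 to 1681 CPM in pNCC. In this sum pCEC 1 was close to the highest pNCC library.

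Of these 21 listed genes 12 were higher, 3 lower (Egr2, Fosl1 and Hsph1) and 6 did not pass (median 2.11). Egr1 and Atf3 were among those that did not (adjusted p = 0.352 and 0.143, or 0.00895 and 0.0317 without pCEC 1). Socs3, which is outside the list, did not pass either (adjusted p = 0.457). With pCEC 1 as the only pCEC library the list gave 7 higher and 9 lower, and without pCEC 2 it gave 10 higher and 5 lower. The log2 fold change of Fos was 5.94 (adjusted p = 0.00701), or 4.77 without pCEC 2, and that of Fosb was 7.86 (adjusted p = 0.00984), or 6.31 without pCEC 2. Jun stood at 84, 1471 and 551 CPM against 105, 129 and 131, and its call (log2 fold change 2.53, adjusted p = 0.0382) was lost without any library but pCEC 1 (from 1.44 to 3.12 with 1 library left out) and turned to -0.57 with pCEC 1 alone. The heat shock gene Hspa1b was less variable, at 532, 909.7 and 847 CPM against 25.5, 37.8 and 44.5, and exceeded pNCC in every library (log2 fold change 4.41 ± 0.31 (SE), adjusted p = 2.61e-05).

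The serum response element, named the CArG box, is a known element of such genes. It stood in 5 of 23 RefSeq promoters of the list (21.7%) against 1.36% of all promoters. Of the 5, 4 were alternative starts of Egr2, which was called lower in pCEC (log2 fold change -4.96, adjusted p = 0.00132). The remaining match was Zfp36, which encodes a protein that destabilises cytokine mRNAs and stood at 105, 1405 and 533 CPM against 29.3, 27 and 33.4. Its element lies 58 bases before the start (chr7:28379229-28379398, minus strand, capitals):
Zfp36: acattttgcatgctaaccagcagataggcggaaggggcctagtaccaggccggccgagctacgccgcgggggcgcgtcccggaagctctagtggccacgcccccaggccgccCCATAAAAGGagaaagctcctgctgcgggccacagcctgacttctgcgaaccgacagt

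Clock genes were mostly higher in pCEC, 13 of 19 with 1 lower and 5 that did not pass (median 1.51). Hlf, a circadian output factor, stood at 558, 526 and 438 CPM against 4.98, 7.9 and 8.46 (log2 fold change 6.16 ± 0.27 (SE), adjusted p = 3.18e-06), and Per3, a clock repressor, at 123, 135 and 106 against 12.4, 7.55 and 7.95 (log2 fold change 3.71 ± 0.23 (SE), adjusted p = 1.41e-05). These were alike in the 3 pCEC libraries. Other clock genes were not. Nr1d1 stood at 48.5, 318 and 355 CPM in pCEC 1, 2 and 3 against 22.5, 20.8 and 32.4, Dbp at 17, 121 and 114 against 17.4, 9.19 and 10.3 and Per1 at 14.6, 142 and 40.6 against 25.8, 20.2 and 23.7. The repressor Cry1 stood at 49, 19.9 and 17.8 CPM and the activator Arntl at 66, 37.1 and 40. Nr1d1, Dbp and Per1 were lowest in pCEC 1, and Cry1 and Arntl were highest there. Per1, Cry1 and Arntl did not pass (adjusted p = 0.113, 0.102 and 0.265). Per1 passed without pCEC 1 (adjusted p = 0.0121) and Cry1 without pCEC 3 (0.0473). Nfil3, which represses the same targets as Hlf activates, was the lower member, at 2.1, 2.84 and 1.6 CPM against 44.9, 47.1 and 54.2 (log2 fold change -4.47 ± 0.23 (SE), adjusted p = 6.81e-06).

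The time of day of collection is not given in the labels. The E-box CACGTG, bound by the clock activators, stood in 28.6% of 21 promoters of the list against 9.53% of all promoters. Its share was also above that of all promoters among keratins (17.6%) and the immediate early list (17.4%). This motif, like the CArG box, was chosen after the values were seen. Ciart, a clock repressor at 1.77, 10.5 and 11.3 CPM against 5.13, 3.35 and 2.78 (adjusted p = 0.191, or 0.00423 without pCEC 1), carries 3 copies within 116 bases of its start (chr3:95882229-95882398, minus strand). One of the 2 Per1 starts carries a copy 166 bases upstream (chr11:69098779-69098948, plus strand), and the capitals mark each copy:
Ciart: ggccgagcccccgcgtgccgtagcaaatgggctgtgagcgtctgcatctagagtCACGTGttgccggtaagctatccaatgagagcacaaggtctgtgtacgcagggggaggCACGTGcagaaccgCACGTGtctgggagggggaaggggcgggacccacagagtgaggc
Per1: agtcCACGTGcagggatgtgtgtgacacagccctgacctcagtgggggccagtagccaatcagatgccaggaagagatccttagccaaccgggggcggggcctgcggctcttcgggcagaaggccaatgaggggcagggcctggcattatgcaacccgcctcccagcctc

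**Figure D5:**
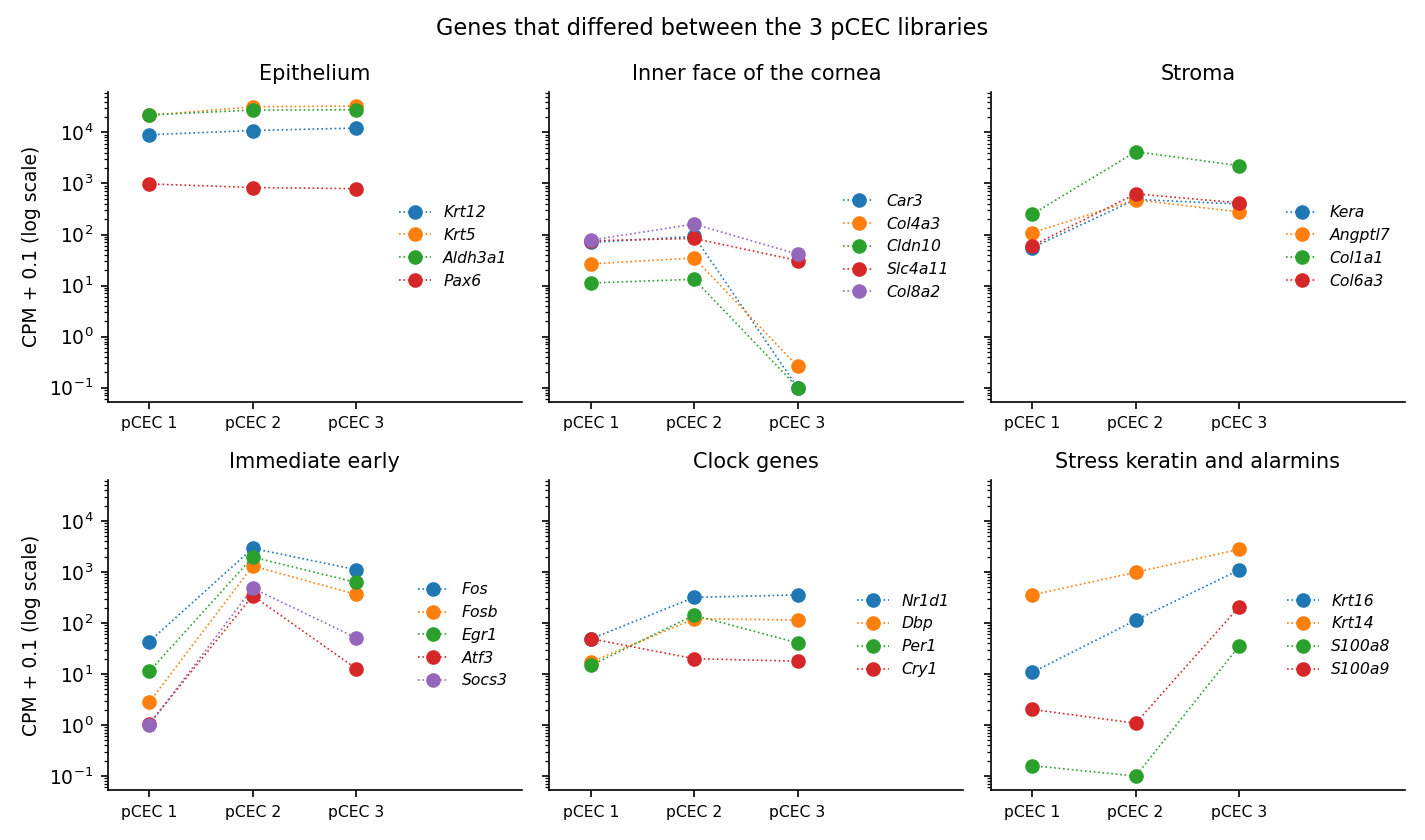
CPM plus 0.1 (log axis) in pCEC 1, 2 and 3 of genes in 6 groups, 1 colour per gene; dotted lines only join the values of a gene, since replicates have no order. The epithelial genes are at similar levels, and the genes in the inner face panel are lowest in pCEC 3. That panel also holds Cldn10, which was listed as a conjunctiva marker. The stromal and immediate early genes are lowest in pCEC 1, and Krt16 and the alarmins are highest in pCEC 3. Genes of single libraries were picked after their values were seen.

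Among the 52 genes at least 5-fold below both other libraries in pCEC 1 were Oas2, Ifi44 and Zbp1, which interferon is known to induce; they were picked from that ranking after their values were seen, and no list of interferon genes was examined. Oas2, an antiviral enzyme, stood at 14.6, 142 and 154 CPM in pCEC 1 to 3 against 26.3, 7.88 and 13.3, Ifi44 at 1.86, 26.6 and 24.2 against 96.7, 51.9 and 49.4 and Zbp1, a nucleic acid sensor, at 2.46, 33 and 41.2 against 85.2, 48.2 and 71.4. For all 3, pCEC 2 and pCEC 3 were close to each other, and Ifi44 and Zbp1 did not pass (adjusted p = 0.0805 and 0.174, or 0.0146 and 0.032 without pCEC 1). The call of Oas2 (adjusted p = 0.0288) was lost without pCEC 2, pCEC 3, pNCC 2 or pNCC 3, and its log2 fold change of 2.71 (from 2.37 to 3.29 with 1 library left out) turned to -0.15 with pCEC 1 alone. B2m, the light chain of class I antigens, was lower in pCEC at 90.6, 255 and 224 CPM against 1733, 1193 and 1108, and 4 of 13 class I genes were higher, 3 lower and 6 did not pass (median 0.43). Without pCEC 1 the number higher was 7, and without pCEC 3 or pNCC 1 the number lower was 1. The class I heavy chains are close copies of each other, and reads may be divided between them.

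Sex-linked transcripts differed between libraries as well. Xist, transcribed from the inactive X chromosome of female cells, stood at 2.25, 247 and 156 CPM in pCEC 1, 2 and 3 and at 407, 302 and 201 in pNCC. The Y-linked gene Ddx3y stood at 83.3, 29.1 and 35.7 CPM against 47.6, 41.7 and 49.6, Uty at 32.1, 8.5 and 14.1 against 15.2, 13.9 and 18.5 and Kdm5d at 56.4, 16.1 and 22.9 against 21.5, 16.1 and 17. Thus pCEC 2, pCEC 3 and all pNCC libraries held both Xist and Y-linked transcripts, while pCEC 1 held the highest Y-linked levels and almost no Xist.

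Markers of neighbouring eye tissues were compared next. The lens crystallin Cryaa stood at 9.77, 0.725 and 0.0399 CPM in pCEC 1 to 3, and Crybb2 at 5.11, 0.348 and 0, so that both were highest in pCEC 1; neither passed the filter. Of 21 lens genes 4 were tested, and 3 of these were higher, 2 of them passing the filter through pCEC alone. Bfsp1, a lens filament protein, stood at 9.08, 9.77 and 9.45 CPM against 1.93, 0.659 and 1.65, Crybb3 at 4.27, 6.29 and 6.42 against 0.117, 0.0549 and 0.17 and Cryba4 at 4.66, 1.42 and 1.96 against 0. Dct, of pigment cells, stood at 4.27, 4.87 and 4.71 CPM against 0 in all pNCC libraries, and Pmel at 6.28, 12.7 and 10.2 against 0.644, 1.56 and 0.539. Crx and Nrl of photoreceptors and Rpe65 of the pigment epithelium were below 0.3 CPM everywhere. Of 11 tested vessel markers 3 were higher, 4 lower and 4 did not pass (median -0.49), with 1 higher without any single pNCC library. Erg, an ETS-domain factor of vessels, stood at 11.2, 34.9 and 19.8 CPM against 1.64, 0.604 and 0.624 and was higher. The growth factor receptor Kdr, at 1.8, 14.4 and 13.1 CPM against 2.4, 2.42 and 2.38, overlapped between groups and its call was lost without any library but pCEC 1 (log2 fold change 2.02, from 1.68 to 2.58 with 1 library left out, and -0.45 with pCEC 1 alone). The call of Tie1, at 5.56, 1.8 and 1.28 CPM against 0.762, 1.1 and 0.284, was lost without pCEC 1 or any single pNCC library (log2 fold change 2.01, from 1.16 to 2.44 with 1 library left out). Pecam1 stood at 0.842, 1.86 and 0.479 CPM against 2.05, 1.48 and 0.965 and did not pass, and Cdh5 at 0.12, 0.87 and 0.399 against 8.85, 10.5 and 11 was lower. Of 11 tested glial markers 3 were higher, 6 lower and 2 did not pass. Mbp was higher at 177, 194 and 214 CPM against 8.91, 6.92 and 5.84 (log2 fold change 4.76 ± 0.20 (SE), adjusted p = 2.94e-06), while Cdh19 was lower at 0.0601, 0.29 and 0.239 against 39.6, 50.9 and 17.1. The 18 neuronal markers summed to 0.571, 4.26 and 1.88 CPM in pCEC and 137, 179 and 191 CPM in pNCC, and the 4 tested passed the filter through pNCC alone, among them Tubb3 at 0, 0.116 and 0.12 CPM against 60.2, 89.3 and 153.

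RNA classes were compared because of the 2 RNA labels. The genes of the mitochondrial genome summed to 15490 to 18580 CPM in pCEC and 17240 to 19180 CPM in pNCC. Of 16 tested, 4 were lower, 12 did not pass and none was higher (median -0.21), but without pCEC 1 the counts were 3 higher and 2 lower, without pCEC 3 another was higher, and without pNCC 1 only 2 were lower. Replication-dependent histones, whose mRNAs lack a polyA tail, summed to 66.6, 79.5 and 77.4 CPM in pCEC 1 to 3 and 56 to 89.5 CPM in pNCC (3 higher, 1 lower and 12 that did not pass of 16, median 0.35, with 2 lower without pCEC 1). Small nuclear and nucleolar RNAs summed to 12.4, 11.5 and 11.5 CPM in pCEC and 7.95 to 8.75 CPM in pNCC. The libraries labelled total RNA were not richer in histone or small RNA transcripts than the polyA-labelled pCEC 1 by more than the range of the polyA-labelled pNCC libraries. Rn18s-rs5, a ribosomal RNA sequence, stood at 1708, 1197 and 538 CPM in pCEC 1 to 3, with the polyA-labelled library the highest, and at 617, 509.7 and 569.6 in pNCC.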

How the data were processed

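RNA was sequenced on an Illumina instrument as 150-base paired reads after NEBNext Ultra RNA library preparation, per the labels' protocols. The values are raw read counts per gene symbol that the authors deposited in 1 table. The submitters' processing notes name mm10 and edgeR without their role, and the aligner and counter are not given in the sources used here. No column was without a sample, and every row named a gene.

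Counts of the 3 pCEC and 3 pNCC libraries were fitted with edgeR 4.0.16 (R 4.3.3, filterByExpr, TMM factors, robust quasi-likelihood test, group as the single term) and p-values were adjusted by Benjamini-Hochberg over the 16608 genes tested, with calls at an adjusted p under 0.05. CPM are counts per 1000000 of the TMM-scaled library size, SE is the size of the log2 fold change over √F, and CPM per kilobase uses the merged exon length in GENCODE M21. Total counts of 27389292 to 36056020 per library set a limit of 0.0823 to 0.120 CPM for a gene at 0 (3 counts), which covers counting error only. A fold against a group at 0 was computed against 3 counts per library. No 2 libraries were duplicates.

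Members and gene lists were chosen with earlier results of these data known. Named genes were the 10 most abundant of those at least 4-fold higher or lower, the 10 with the largest change above 10 CPM, list members, and genes singled out after their values were seen (genes of single libraries). Lists are described by counts and medians, without a set test. The code was tested on simulated counts. Alternatives were DESeq2 1.42.0 size factors, no TMM, the DESeq2 Wald test, other filters, a replicate block, leaving out each library, pCEC 1 as the only pCEC library, and a test against a 2-fold change. The libraries of induced cells were not used here, and a few genes are not reported here.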

Additional observations from a re-analysis of the deposited data

How the results depend on the processing

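The 5032 genes called higher and 5350 called lower stayed within 1.5 times these counts under all alternatives but the test against a 2-fold change, which called 2830 and 2886. Without TMM scaling the median of all genes moved from -0.01 to -0.14 on the log2 scale and the division moved to 4497 higher and 5884 lower. DESeq2 size factors gave 5172 and 5190, the DESeq2 Wald test 5309 and 5316, no filter 5266 and 5412, and a filter of 1 CPM in 3 libraries 4584 and 4769. Leaving out 1 library gave 4446 to 5247 higher and 4761 to 5440 lower, and pCEC 1 as the only pCEC library gave 4393 and 4895.

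Same-numbered libraries did not deviate together (correlations of 0.00779, 0.000135 and 0.0716), so the numbers are not taken as pairs. With the replicate block 4720 genes were higher and 5057 lower, and 12 of 217 named genes called in the report lost their call. Of these 217, no filter on low counts lost 25, no TMM 2, DESeq2 size factors 1, pCEC 1 alone 18, and leaving out 1 library 6 to 14. Among lists, no filter left 6 immediate early genes higher in place of 12 and 12 collagen chains lower in place of 21. The filter of 1 CPM tested 9 Hox genes in place of 19.

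With pCEC 1 alone the log2 fold change changed sign for Jun (-0.57), Oas2 (-0.15), Kdr (-0.45), Egr1 (-4.84), Atf3 (-3.83), Socs3 (-6.30), Per1 (-0.71), Ciart (-1.12), Lum (-1.51), Krt17 (-1.87), Fabp5 (-0.61) and Ptprc (-0.19). The replicate block did so for Socs3 (-0.79), Krt17 (-0.13), Ddx3y (-0.07), Uty (-0.01) and Osr2 (0.06), and no TMM for Ddx3y (-0.02). Leaving out pCEC 1 did so for Abcg2, Ddx3y, Uty, Osr2 and Tpm2, pCEC 2 for Atf3 and Socs3, pCEC 3 for Krt17 and Fabp5, pNCC 1 for Osr2, and pNCC 3 for Lum and Tpm2. Of these genes only Jun, Oas2 and Kdr had been called; the cause was not tested. With 1 library left out the values spanned -0.21 to 0.05 for Abcg2, -0.93 to 3.80 for Atf3, -0.45 to 0.37 for Ddx3y, -0.25 to 1.16 for Fabp5, -0.58 to 0.85 for Krt17, -0.02 to 1.13 for Lum, -0.57 to 0.57 for Osr2, -1.37 to 2.00 for Socs3, -0.27 to 0.16 for Tpm2 and -0.43 to 0.56 for Uty. Depth limits statements on genes below the level of 3 counts (0.0823 to 0.120 CPM).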
